A study of Homo sapiens with 6 samples.

Results

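Open chromatin was described around the starts of 9 genes that mark lung epithelial identity, SFTA2, SFTPA1, SFTPB, SFTPC, SFTPD, NKX2-1, NAPSA, MUC1 and SCGB1A1, in A549 cells treated with dexamethasone or vehicle. The members were all regions with any base within 100 kb of these gene starts in the hg19 build, after peaks of 6 DNase-seq libraries that shared at least 1 bp had been merged. There were 153 such regions of 81216 in the whole series. Treatment was 100 nM of the synthetic glucocorticoid dexamethasone or, as vehicle, 0.02% ethanol, each for 1 h, with 3 libraries per treatment. A549 is an established human lung adenocarcinoma line, and all libraries came from this 1 line. In DNase-seq, open stretches of chromatin are found by where DNase I cuts, and each library had its own list of called peaks. The genes were chosen by their role in lung epithelium and selected on peak calls of these libraries that were already known, so the calls near them are described and not tested. At the edge of the windows, the last region inside lay 98.4 kb from MUC1 and was called in all 6 libraries, and the first outside lay at 100.4 kb from NAPSA and was called in 1 ethanol library.

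Pulmonary surfactant is the film of lipid and protein that lowers surface tension in the alveoli and is made by alveolar type II cells. Its proteins are the hydrophobic surfactant proteins B and C (SFTPB, SFTPC) and the collectins A and D (SFTPA1, SFTPD). The homeodomain factor NKX2-1 specifies lung epithelium and drives surfactant gene transcription, the aspartic protease napsin A (NAPSA) processes surfactant protein B, and SCGB1A1 encodes the secretoglobin of airway club cells. MUC1 is a membrane mucin of many epithelia, and SFTA2 encodes a small surfactant-associated protein. Glucocorticoids are known to promote surfactant production in the fetal lung.

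RefSeq promoter sequences, from 250 bases before to 50 after a gene start, were held for 7 of the 9 members and are shown for 5 of them. SFTA2 had the dexamethasone-only site nearest to a start, NKX2-1 and MUC1 had open chromatin beside the start in every library, NAPSA had strong open chromatin a short way upstream of its start, and SFTPA1 held the most searched motifs. Positions are in GRCh38.p14, the build of that table, and were not converted to hg19. Capitals mark matches, on either strand, to the motifs ACANNNTGT (glucocorticoid receptor core), CTCAAG (NKX2-1), TGTTTAC (FOXA), TGANTCA (AP-1) and TATAAA. No sequence shown here held a TGANTCA match.
SFTA2 (chr6:30932121-30932420, minus strand): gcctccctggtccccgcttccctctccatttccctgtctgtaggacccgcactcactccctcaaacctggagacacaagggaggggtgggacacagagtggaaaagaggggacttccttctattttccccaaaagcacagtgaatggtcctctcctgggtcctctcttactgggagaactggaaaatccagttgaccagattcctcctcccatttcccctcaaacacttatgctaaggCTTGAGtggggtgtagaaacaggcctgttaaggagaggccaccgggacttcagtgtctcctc
SFTPA1 (chr10:79610689-79610988, plus strand): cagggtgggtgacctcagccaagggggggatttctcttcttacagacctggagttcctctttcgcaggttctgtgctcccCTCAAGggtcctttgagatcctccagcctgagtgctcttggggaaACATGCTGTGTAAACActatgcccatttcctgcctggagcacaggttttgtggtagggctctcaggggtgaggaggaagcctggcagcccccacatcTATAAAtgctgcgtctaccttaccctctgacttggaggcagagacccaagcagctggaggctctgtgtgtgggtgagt
NKX2-1, upstream start (chr14:36520183-36520482, minus strand): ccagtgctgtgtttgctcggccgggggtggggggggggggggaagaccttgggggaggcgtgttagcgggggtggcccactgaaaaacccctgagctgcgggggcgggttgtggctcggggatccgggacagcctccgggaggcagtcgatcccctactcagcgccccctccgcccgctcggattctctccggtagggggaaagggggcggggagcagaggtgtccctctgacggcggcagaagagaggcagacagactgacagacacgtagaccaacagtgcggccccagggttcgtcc
NAPSA, upstream start (chr19:50369253-50369552, minus strand): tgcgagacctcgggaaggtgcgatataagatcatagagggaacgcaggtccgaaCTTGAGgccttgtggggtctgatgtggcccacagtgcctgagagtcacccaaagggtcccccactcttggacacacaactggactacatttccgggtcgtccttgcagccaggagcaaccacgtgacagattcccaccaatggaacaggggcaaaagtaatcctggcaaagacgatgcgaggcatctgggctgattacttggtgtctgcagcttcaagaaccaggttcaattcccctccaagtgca
MUC1, upstream start (chr1:155192866-155193165, minus strand): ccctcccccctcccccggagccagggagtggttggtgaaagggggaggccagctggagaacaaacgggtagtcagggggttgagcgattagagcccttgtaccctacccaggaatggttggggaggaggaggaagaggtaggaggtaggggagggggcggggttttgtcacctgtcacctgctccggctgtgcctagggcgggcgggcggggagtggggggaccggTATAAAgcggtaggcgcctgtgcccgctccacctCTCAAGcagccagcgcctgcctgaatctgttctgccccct

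The motif CTCAAG occurred in a promoter of 5 of the 7 members, SFTA2, SFTPA1, NKX2-1, NAPSA and MUC1, and in 12.4% of all 35116 RefSeq promoters of that length. In NKX2-1 it lay at the downstream start, together with TGTTTAC, and the upstream start shown here held no searched motif. The FOXA motif TGTTTAC was found in SFTPA1 and NKX2-1 (3.42% of all promoters), and TATAAA in SFTPA1 and MUC1 (11.5%). The core ACANNNTGT was found in SFTPA1 alone among the 7 members (5.37% of all promoters), directly beside the FOXA match, with no base shared. The AP-1 motif TGANTCA occurred in SFTPB and SFTPD (7.71% of all promoters). The full receptor site, AGAACA and TGTTCT with any 3 bases between them, and the C/EBP motif TTGCGCAA were found in none of the 7 members, against 0.00285% and 0.151% of all promoters. Members were counted by gene, with a match at any start, whereas the shares of all promoters are per promoter. SFTPB, NKX2-1, NAPSA and MUC1 had 2 starts each and so more room for a match, so the 2 figures are not in like units. A match is a string of letters and not a measured binding site.

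Most regions around these genes were open under both treatments. Of the 153 regions, 103 (67.3%) had a peak in all 6 libraries, against 49.2% of all regions of the series. A further 19 (12.4%, against 18.9% of the series) were called in a single library and 26 (17.0%, against 30.2%) had other partial patterns. The dexamethasone-only pattern, meaning calls in every dexamethasone library and in no ethanol library, was met by 5 regions (3.27%), and 1.10% of the series showed it. The reverse, ethanol-only pattern was met by 0 of the 153 regions and by 0.662% of the series. The 5 regions lay in the SFTA2 and SFTPB windows alone, and without the SFTA2 window 2 of 141 were left (1.42%, near the 1.10% of the series). Libraries with the same number deviated together, so the pattern was also counted by pairs. Asking for a dexamethasone peak and no ethanol peak in at least 2 of 3 numbered pairs, with no pair reversed, gave 8 regions (5.23%, against 4.47% of the series), and the reverse gave 1 (0.654%, against 4.80%). Under the pairwise rule the share of dexamethasone regions was close to that of the series. The strength of a region in a library is given as the percentile of the peak's −log10 q within that library's own list, where a higher percentile is a stronger peak.

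**Figure D1:**
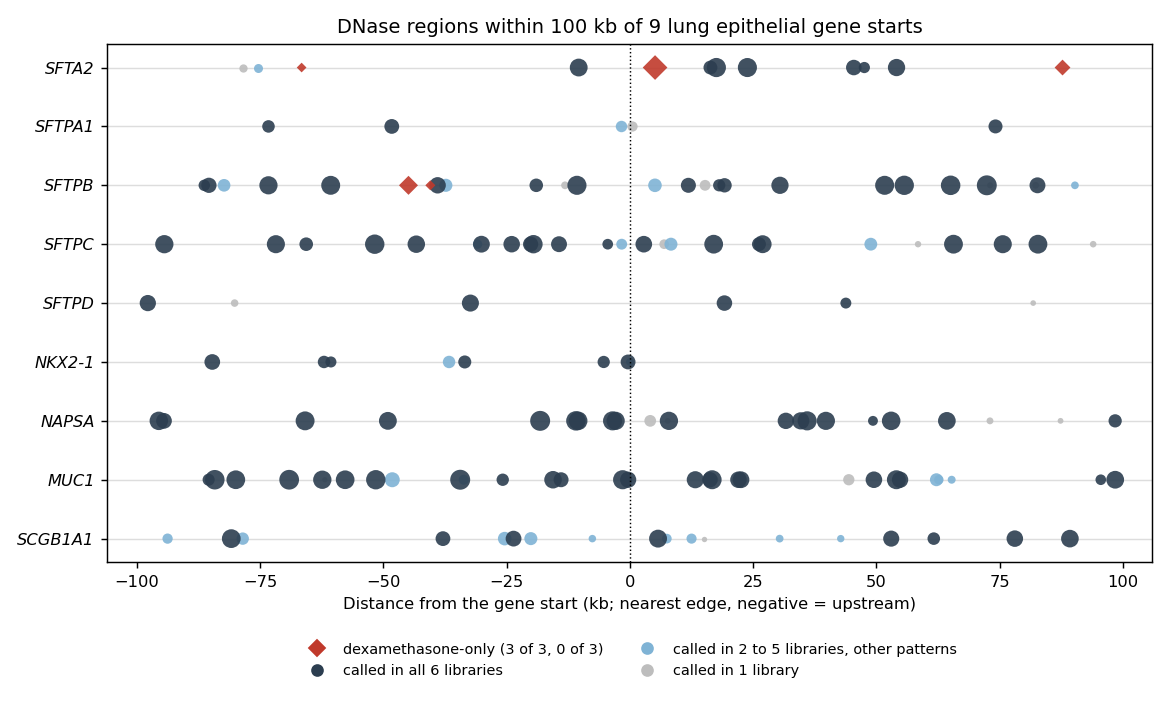
Merged DNase regions around each of the 9 gene starts, placed by the distance of their nearest edge from the start in kb (negative is upstream), with symbol size growing with the mean percentile of −log10 q in the lists that called them. Red diamonds are the 5 dexamethasone-only regions, 3 around SFTA2 and 2 upstream of SFTPB, and dark circles the 103 regions called in all 6 libraries.

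The windows held 129, 132 and 125 called regions in dexamethasone replicates 1 to 3 and 118, 129 and 121 in ethanol replicates 1 to 3. These counts averaged 129 ± 3.5 with dexamethasone and 123 ± 5.7 with ethanol (SD, n = 3 each), and the ranges overlapped. The SFTA2 window was called at 11 regions in each dexamethasone library and at 7, 8 and 9 in the ethanol libraries, so there the groups did not overlap. It was the 1 window of 9 with all dexamethasone counts above all ethanol counts. Of the 200 kb tiles of the same chromosomes, 1.45% showed this, and 3.45% of the 1042 tiles with at least as many regions as this window. By definition, the 3 dexamethasone-only regions of the SFTA2 window count in every dexamethasone library and in no ethanol library. Without them the counts overlapped between treatments, and the window was chosen with the calls known, so this is no separate result. Around SCGB1A1 the counts were 14, 16 and 13 with dexamethasone and 11, 17 and 13 with ethanol, with the ethanol libraries spread on both sides.

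The windows differed in how much open chromatin they held. MUC1 had 31 regions, SFTPB 26, SFTPC 25, NAPSA 22 and SCGB1A1 18, whereas SFTA2 had 12, NKX2-1 8, SFTPD 6 and SFTPA1 5. For scale, 6128 consecutive 200 kb tiles of the same 8 chromosomes had a median of 4 regions and a 90th percentile of 15. Of the tiles, 22.1% had none. The windows are centred on gene starts, unlike the tiles, so a count above the tiles is not read as a trait of these genes. The windows also contain other genes. By RefSeq gene order the neighbours are VARS2, GTF2H4 and DDR1 on the downstream side of SFTA2, GNLY and ATOH8 upstream of SFTPB, BMP1 downstream of SFTPC, and THBS3, TRIM46 and KRTCAP2 beside MUC1, and a region in a window was not assigned to any of these genes. SFTPA1 neighbours its near-identical copy SFTPA2. Reads that match both copies can be lost or split, and how the authors' alignment treated them is not given in the sources used here.

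**Figure D2:**
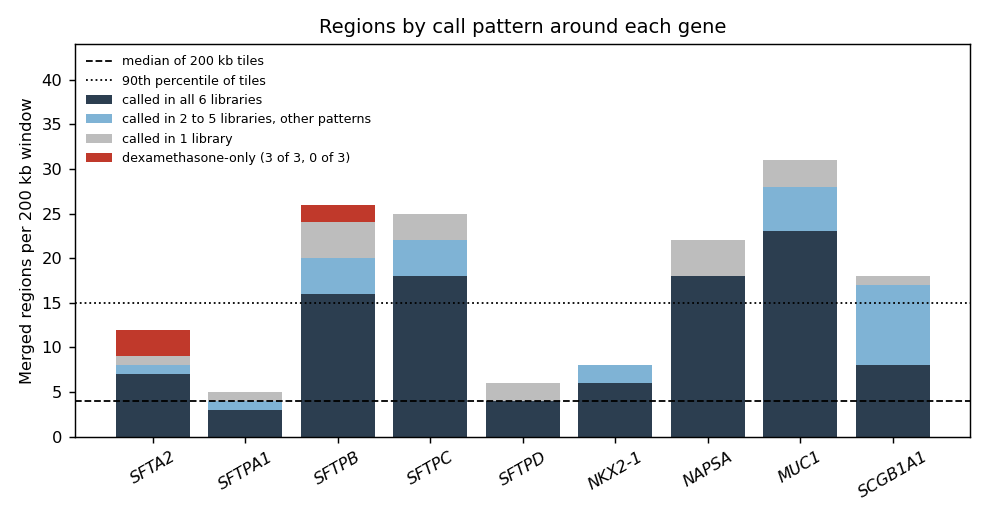
Number of merged regions within 100 kb on either side of each gene start, stacked by call pattern, with the median (dashed) and 90th percentile (dotted) of 200 kb tiles of the same chromosomes. MUC1, SFTPB, SFTPC, NAPSA and SCGB1A1 lie above the 90th percentile of 15 regions, and SFTPA1 with 5 and SFTPD with 6 lie near the median of 4. The windows are centred on gene starts, unlike the tiles.

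The strongest dexamethasone-only site lay 5.1 kb downstream of the SFTA2 start, on chromosome 6 at 30894463 to 30894850 in hg19, the build of all peak positions given here. Its fold enrichment over the caller's background, the authors' value for each peak, was 9.04, 9.55 and 13.2 in dexamethasone replicates 1 to 3 (mean 10.6 ± 2.3, SD, n = 3), and no ethanol library had a peak there. The corresponding percentiles of −log10 q within each list were 67.2, 69.3 and 87.3, so the site ranked in the upper part of every dexamethasone list and highest in replicate 3. The 3 summits fell within 14 bp of each other, and the nearest ethanol peak was 10.8 kb away. SFTA2 is 0.818 kb long in RefSeq, so the site lies beyond the end of the gene, on the side of VARS2. By mean percentile (74.6) it was the 4th of the 897 dexamethasone-only regions of the series. Without read counts, a missing peak cannot be read as closed chromatin, only as signal below the calling threshold.

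The other dexamethasone-only regions of the SFTA2 window were weaker. The one 87.8 kb downstream (30811791 to 30812194) had percentiles of 25.2, 32.6 and 21.9 in dexamethasone replicates 1 to 3 and fold enrichments of 5.88, 6.90 and 5.67. It stood near the median of 24.7 for the mean percentile of all dexamethasone-only regions. The one 66.6 kb upstream (30966548 to 30966900) had percentiles of 1.56, 12.7 and 2.70, close to the calling threshold in replicates 1 and 3. Its −log10 q was 4.86 in replicate 1, and it was no longer called in all 3 dexamethasone libraries when a −log10 q of at least 5 was required. Of 6128 tiles of 200 kb, 1 (0.0163%) held 3 or more dexamethasone-only regions and 29 (0.473%) held 2 or more, but the SFTA2 window was chosen with the calls known and is centred on a gene, unlike the tiles.

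Other chromatin near SFTA2 was open under both treatments. The strongest region of the window, 17.5 kb downstream, had percentiles of 88.8, 89.8 and 91.9 with dexamethasone and 95.0, 91.8 and 91.4 with ethanol. The nearest region called in all libraries, 10.4 kb upstream, had 72.4, 80.6 and 86.0 with dexamethasone and 73.1, 75.2 and 79.4 with ethanol. In both, the treatments overlapped. At the SFTA2 start itself no library had a region within 1 kb.

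**Figure D3:**
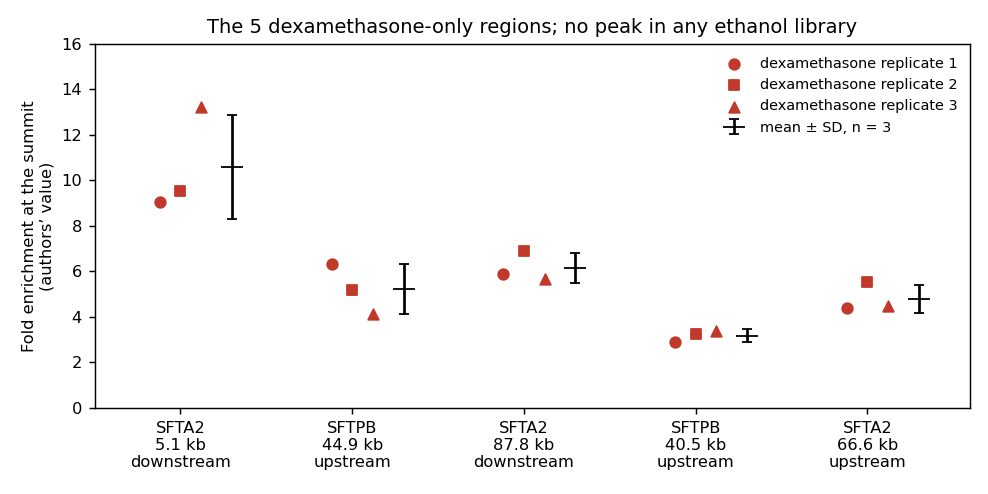
Fold enrichment at the summit (authors' value, linear axis from 0) of the 5 dexamethasone-only regions in each dexamethasone library, with the mean ± SD of the 3 libraries beside the points. The region 5.1 kb downstream of SFTA2 reached 9.04 to 13.2, and each of the other 4 stayed below 7 in every library.

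SFTPB, which encodes the surfactant protein required for a working surfactant film, had 2 dexamethasone-only regions upstream, on the side of GNLY, a gene of cytotoxic lymphocytes. The one 44.9 kb upstream (chromosome 2, 85940291 to 85940722) had fold enrichments of 6.33, 5.20 and 4.14 and percentiles of 60.1, 42.6 and 21.5 in dexamethasone replicates 1 to 3, so the libraries that called it differed widely in its rank. The one 40.5 kb upstream (85935856 to 85936119) had percentiles of 2.38, 7.43 and 9.86 and lay only 1.10 kb from the nearest ethanol peak. That neighbour, 39.0 kb upstream (85934384 to 85934760), was called in all 6 libraries. With every list reduced to the 58281 peaks of the shortest, its percentiles were 42.6, 49.2 and 68.6 with dexamethasone and 77.8, 73.8 and 73.3 with ethanol. All dexamethasone ranks were thus below all ethanol ranks at this site, with a difference of −21.5 points between the means, while the site 1.10 kb further upstream had dexamethasone peaks alone. A further region 37.3 kb upstream was called in 3 dexamethasone libraries and in ethanol replicate 2.

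Nearer to the SFTPB gene, regions that set the treatments apart were lower, or called in fewer libraries, with dexamethasone. Others overlapped between treatments or had a single call. The region nearest to the start, 5.1 kb downstream (85889994 to 85890292), was absent from dexamethasone replicates 1 and 2, had a percentile of 40.3 in dexamethasone replicate 3, and had 29.9, 43.9 and 54.9 in the ethanol libraries. It was the 1 region that counted for ethanol under the pairwise rule, and it became ethanol-only when dexamethasone replicate 3 was left out. At 18.1 kb downstream a region had percentiles of 4.11, 0.622 and 41.0 in dexamethasone and 55.7, 52.4 and 44.6 in ethanol libraries, in the full lists. All dexamethasone percentiles were below all ethanol percentiles there. Dexamethasone replicate 3 was close to the ethanol libraries, and the other 2 dexamethasone libraries were near the bottom of their lists. A strong region 10.7 kb upstream had 89.3, 88.3 and 89.4 with dexamethasone and 92.4, 92.0 and 89.6 with ethanol in lists of one length, a difference of −2.31 points between the means. A region 11.9 kb downstream had 49.6, 49.0 and 65.8 with dexamethasone and 42.0, 58.3 and 55.4 with ethanol in the full lists, which overlapped. Single calls went both ways. One 13.2 kb upstream was in dexamethasone replicate 1 alone, at a percentile of 9.11. Another, 15.2 kb downstream, was in ethanol replicate 3 alone, at 24.3. No region lay within 1 kb of the SFTPB start.

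At the gene starts, open chromatin called in every library was found within 1 kb for 2 of the 9 starts used here, those of NKX2-1 and MUC1, neither of which encodes a surfactant protein. For NKX2-1, a region 0.374 kb upstream (chromosome 14, 36989804 to 36990113) had percentiles of 45.9, 65.9 and 46.4 with dexamethasone and 42.5, 58.9 and 54.2 with ethanol. Its fold enrichment averaged 5.76 ± 0.76 with dexamethasone and 5.45 ± 0.53 with ethanol (SD, n = 3 each). The treatments overlapped, and replicate 2 was the highest library of each. A separate weak region covered the NKX2-1 start itself (36989247 to 36989516). It was called in dexamethasone replicates 1 and 3 only, at percentiles of 9.16 and 10.3. It met the pairwise rule but not the dexamethasone-only pattern. RefSeq lists 2 starts of NKX2-1 that lie 0.676 kb apart in GRCh38.p14, and which of them the hg19 start matches was not determined. The call of every library within 1 kb therefore holds for the NKX2-1 start used here. For MUC1, a region 0.357 kb upstream (chromosome 1, 155163063 to 155163757) had percentiles of 64.2, 55.4 and 62.6 with dexamethasone and 56.0, 74.4 and 66.0 with ethanol, and its fold enrichment averaged 4.99 ± 0.18 with dexamethasone and 5.48 ± 0.76 with ethanol (SD, n = 3 each). It was followed 1.48 kb upstream by a stronger region with 90.7, 88.8 and 92.4 with dexamethasone and 93.5, 86.7 and 91.6 with ethanol. Both overlapped between treatments.

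SFTPA1 had a single call within 1 kb, a region 0.356 kb downstream (chromosome 10, 81371051 to 81371253) at a percentile of 21.1 in ethanol replicate 2. Just upstream, at 1.84 kb, a weak region was called in dexamethasone replicates 1 and 3 at percentiles of 40.7 and 18.4 and in the ethanol libraries at 27.8, 25.6 and 27.8. This region was missing from dexamethasone replicate 2 alone. The 3 regions of the SFTPA1 window that were called in all libraries lay 48.3 to 74.2 kb away and had mean percentiles from 35.1 to 51.5, and none of the 9 windows had a lower percentile for its strongest shared region.

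The starts of SFTPC, SFTPD and SCGB1A1, like the NAPSA start used here, had no region within 1 kb in any library. For SFTPC, the surfactant gene most specific to alveolar type II cells, a region 1.67 kb upstream was called only in dexamethasone replicate 1 and ethanol replicate 3, at percentiles of 29.1 and 20.2. The nearest region called in all libraries lay 2.82 kb downstream (chromosome 8, 22021999 to 22023185) with 67.1, 73.2 and 58.2 for dexamethasone and 66.2, 66.3 and 70.8 for ethanol. SFTPD was the most isolated start, with its nearest region 19.2 kb downstream (chromosome 10, 81689196 to 81689689) at 71.4, 45.4 and 60.3 with dexamethasone and 59.8, 57.9 and 49.2 with ethanol. The treatments overlapped at both sites. SCGB1A1 had its nearest region 5.71 kb downstream (chromosome 11, 62192215 to 62192542), beyond the 4.16 kb length of the gene in RefSeq. Its percentiles were 81.6, 86.8 and 68.0 with dexamethasone and 88.7, 82.3 and 64.2 with ethanol, with replicate 3 lowest in both treatments.

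NAPSA had strong regions close to, but not at, the start used here. The nearest lay 2.90 kb upstream (chromosome 19, 50871827 to 50872400) with percentiles of 81.5, 82.1 and 84.2 with dexamethasone and 79.9, 86.3 and 76.8 with ethanol. A second, 3.52 kb upstream, had 89.0, 88.3 and 95.0 with dexamethasone and 88.1, 88.0 and 91.9 with ethanol. RefSeq lists 2 starts of NAPSA that lie 3.66 kb apart in GRCh38.p14, and which of them the hg19 start matches was not determined. The regions 2.90 and 3.52 kb upstream lie within 1 kb of a point that far upstream, and a region 4.12 kb downstream, called in 1 ethanol library, lies within 1 kb of a point that far downstream. The absence of a call within 1 kb therefore holds only for the NAPSA start used here. Both regions overlapped between treatments.

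As a check of the cell type label, the starts used here for SFTPB, SFTPC, SFTPD, SFTA2 and SCGB1A1 carried no called region within 1 kb in any library. Nor did the NAPSA start used here, which had regions of all 6 libraries 2.90 and 3.52 kb upstream. SFTPA1 carried 1 weak call, and NKX2-1 and MUC1 carried regions in all 6. Expression was not analysed here.

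**Figure D4:**
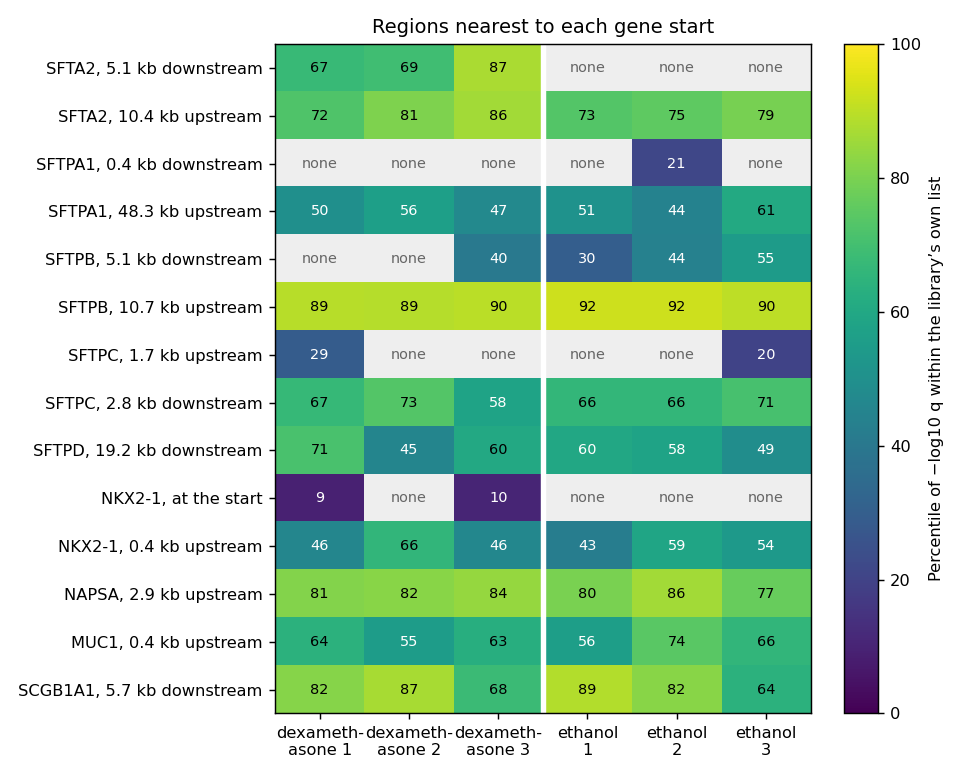
Percentile of −log10 q within each library's own list for the region nearest to each gene start and, where that was not called in every library, the nearest region called in all 6, with dexamethasone libraries left of ethanol libraries and grey cells for no peak. The SFTA2 region 5.1 kb downstream is present in the dexamethasone libraries alone, at 67.2 to 87.3, and the shared regions at NKX2-1, NAPSA, MUC1 and SCGB1A1 overlap between treatments.

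NKX2-1 differed from the other windows in the placement of its regions. Of its 8 regions, 7 lay upstream, 1 covered the start and 0 lay in the 100 kb downstream, whereas each of the other 8 windows had regions on both sides. Its 6 shared regions had a median of the mean percentile of 36.5, the lowest of the 9 windows, followed by 45.5 for SFTPA1. The medians were 60.4 for SFTPD, 64.0 for SCGB1A1, 68.7 for SFTPB, 72.7 for SFTA2, 75.0 for MUC1, 76.6 for SFTPC and 82.0 for NAPSA. Over all 103 shared regions the median was 71.4, against 64.3 for all shared regions of the series, and their median width was 521 bp, against 482 bp. The strongest shared regions of the windows ranged in mean percentile from 99.3 (34.4 kb upstream of MUC1), 99.1 (18.2 kb upstream of NAPSA) and 98.8 (72.4 kb downstream of SFTPB) to 58.6 for NKX2-1 and 51.5 for SFTPA1. The strongest NKX2-1 region, 84.7 kb upstream, had percentiles of 46.1, 50.1 and 58.4 with dexamethasone and 69.8, 59.0 and 68.4 with ethanol in the full lists, lower in every dexamethasone library. In lists of one length they were 46.1, 48.1 and 58.1 with dexamethasone and 69.8, 57.4 and 66.7 with ethanol, which overlapped between treatments but was lower with dexamethasone in all 3 numbered pairs. For SFTPD the strongest region lay 32.4 kb upstream, with 74.9, 85.0 and 46.5 with dexamethasone and 77.3, 76.5 and 63.5 with ethanol, and dexamethasone replicate 3 was far below the rest. For SCGB1A1 it lay 80.9 kb upstream at a mean of 86.9, and for SFTPC 51.8 kb upstream at 93.5.

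For regions called in all libraries, the treatments were also compared by rank in lists of one length, in which 102 member regions remained. All 3 dexamethasone ranks lay above all 3 ethanol ranks at 5 of them (4.90%), against 5.55% of all 39496 such regions of the series, and below at 6 (5.88%), against 5.80%. Both shares were near the background, so this is not a result about these genes. By numbered pairs, 13 regions were higher and 18 lower in all 3 pairs (13.8% and 15.0% of the series). Besides the SFTPB sites above, a region 45.4 kb downstream of SFTA2 (30853859 to 30854534) had percentiles of 73.8, 61.7 and 61.6 with dexamethasone and 43.2, 50.1 and 47.7 with ethanol, 18.7 points higher with dexamethasone. A region 24.0 kb upstream of SFTPC had 75.6, 67.3 and 68.0 with dexamethasone and 58.9, 62.5 and 58.0 with ethanol, 10.5 points higher with dexamethasone. Around MUC1, a region 22.0 kb downstream had 61.6, 62.1 and 62.5 with dexamethasone and 70.3, 68.8 and 66.4 with ethanol, and one 16.7 kb downstream had 89.0, 86.4 and 86.1 with dexamethasone and 92.0, 91.2 and 89.5 with ethanol. The differences between the means were −6.45 and −3.68 points. The other 5 separated regions lay over 25 kb from a start, with differences between the means of −11.4 to 16.4 points.

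**Figure D5:**
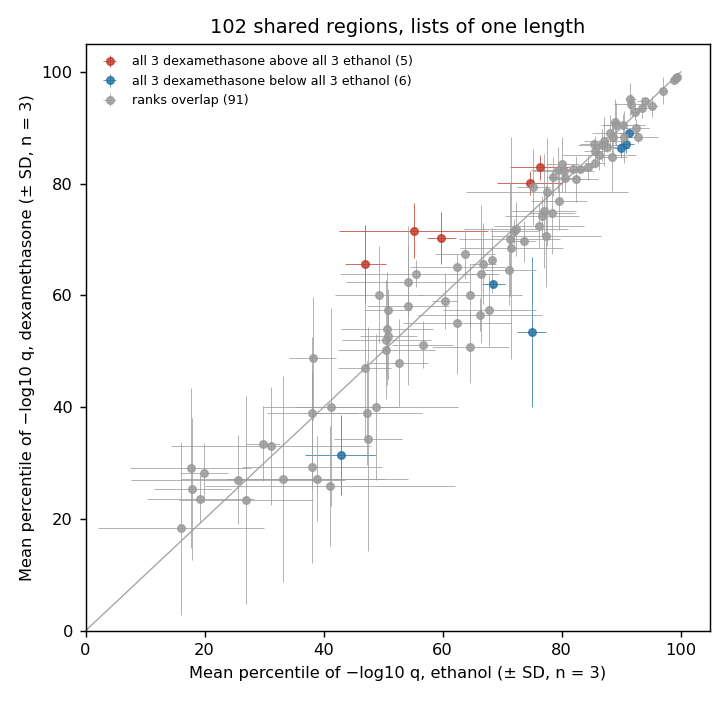
Mean percentile of −log10 q in dexamethasone (vertical) and ethanol (horizontal) libraries, each ± SD of 3 libraries, for the 102 member regions called in all libraries after lists were reduced to one length. Red points (5) have all dexamethasone ranks above all ethanol ranks, blue points (6) have them below, and most points scatter around the line of equal rank.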

How the data were processed

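DNase-seq had been made from A549 cells, with 3 libraries per treatment grouped by their titles. The authors deposited 1 peak list per library in hg19, and, per the submitters' processing notes, MACS2 2.1.0, Bowtie, CASAVA 1.3 and bedtools were used. Their settings are not given in the sources used here. In the deposited lists, whose columns follow the MACS2 layout, the ratio is each summit's fold enrichment over background in that library. P-values and q-values were deposited as −log10. The deposited score follows −log10 q multiplied by 10, and it and the p-value were not used. Lists held 58281 to 61344 peaks. They give no counts, so the read depth is unknown and no interval based on reads can be given.

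Peaks sharing at least 1 bp over the 6 lists were merged with Python 3.11.15 and pandas 2.3.3, and a library called a region if it had any peak there. The distance is from the gene start to the nearest edge. Strand followed the RefSeq promoter table or, for SFTPC and SCGB1A1, general knowledge. Strength is the percentile of −log10 q within a library's list. For ranks between treatments, lists were reduced to 58281 peaks. Folds and ranks belong to their own list. The merging and rank rules were tested on simulated data. With 3 libraries against 3, an exact rank test with no set direction cannot give p below 0.1. No p-value is given. The labels do not say whether libraries came from separate cultures, so their spread may be technical. Any pair of lists shared at most 0.0463% of their intervals exactly.

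Equal replicate numbers were read as pairs from the data, not from the labels: over shared regions, deviations from the treatment mean correlated at 0.215, 0.119 and 0.160 between equally numbered libraries, and at −0.175 to −0.0062 between others. Deviations cancel out within a treatment, so positive values for equal numbers push the others below them by construction, and the negative values add no separate support.

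The members, motifs, rules and alternatives were chosen with earlier results of these data known. Named regions were those nearest each start, the nearest called in all libraries, every dexamethasone-only or ethanol-only region, the strongest shared region per window, and separated ranks within 25 kb of a start. Some regions were named after their values were seen. At SFTPB these were the regions 11.9, 15.2 and 18.1 kb downstream and 13.2 kb upstream, and the partial region 37.3 kb upstream. The others were the region 1.84 kb upstream of SFTPA1, the second nearest regions at MUC1 and NAPSA, and separated regions beyond 25 kb. No cell type marker beyond the members was read, since no hg19 annotation was used here.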

Additional observations from a re-analysis of the deposited data

How the results depend on the processing

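Read depth is unknown, so weak regions cannot be told from regions just under the caller's threshold. The 5 dexamethasone-only regions were 4 at a −log10 q of at least 5, 6 with summits joined, and 5 with lists of one length, merging across 100 bp, 50% cover or distances from region centres. At that −log10 q, with summits joined and with lists of one length there were 149, 185 and 151 member regions. The shares of the series were 1.075%, 0.998% and 1.14% in the same order. Series shares for merging across 100 bp and for 50% cover are not given here. Leaving out 1 library gave 5 to 6 dexamethasone-only regions (3.23 to 4.03%) while the share of the series was 1.52 to 2.17%, so the members stood less far above the series than with all libraries. It gave 0 to 1 ethanol-only regions, the 1 without dexamethasone replicate 3, against 1.17 to 1.84% of the series. The 3 regions at SFTA2 included 1 close to the threshold.

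Windows of 50 kb held 88 regions, 58 of them called in all libraries and 3 dexamethasone-only, and windows of 250 kb held 374 and 235, with 7 dexamethasone-only. The dexamethasone-only share was 3.41% at 50 kb and 1.87% at 250 kb, nearer to the 1.10% of the series. Without the SFTA2 window, an alternative chosen after seeing the data, 2 of 141 regions were dexamethasone-only (1.42%), so the higher share rested on that 1 window. Under the replicate block there were 8 dexamethasone and 1 ethanol regions, and 13 and 18 shared regions ranked higher and lower. The pairwise rules ask for less, so counts rise by construction, as they do with 2 libraries in a treatment: shared regions with dexamethasone above then numbered 9, 11 and 9 without dexamethasone replicates 1 to 3 and 10, 11 and 12 without ethanol replicates 1 to 3, and with dexamethasone below 11, 9 and 9 and 16, 10 and 12 (9.74 to 12.2% and 9.80 to 11.7% of the series). Full lists gave 4 above and 9 below, and ranks of fold gave 4 and 6. These counts are given without the share of the series, so no direction is read from them. The count of 2 starts with a region of all libraries within 1 kb was 2 in every alternative run, none of which used other starts. Calls were recomputed for 18 regions, those nearest a start, those nearest of all libraries and the dexamethasone-only ones, and 10 of these had no difference between treatments to lose. The difference in the share of libraries called moved under at least 1 alternative for 5 regions. At the SFTPC region 1.67 kb upstream it was −0.333 without dexamethasone replicate 1 and 0.333 without ethanol replicate 3. Rank differences of the 11 separated regions kept their sign in 88 comparisons with alternatives added after seeing the data. Most of these left out 1 library, where the sign could hardly change, since the regions were picked for ranks that did not overlap. In 3 comparisons, in ranks of fold, the difference moved by more than the spread between libraries.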
